A study of Vulpes vulpes with 48 samples.

Results

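The genes described here are those that appear in the deposited count table of fox prefrontal cortex and not in the matching table of basal forebrain. They were found by comparing the row names of both tables, which gave 113 of the 12808 cortex genes (0.882%), out of 13202 genes in either table. The opposite set, listed only for the basal forebrain, held 394 of 13089 genes (3.01%), and 12695 genes were in both tables. The study sequenced poly(A) RNA of silver foxes (Vulpes vulpes), all male and aged 1.5 years, from a line bred for tame behaviour and a line bred for aggressive behaviour. No drug, transgene or other agent is named in the labels. Right prefrontal cortex of 12 tame and 12 aggressive foxes supplied the values below. Right basal forebrain (22 libraries, 10 of them tame) was used for its list of genes and for the levels of the genes that it alone lists. Each library carries its own identifier, and p-values measure the spread between libraries.

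The prefrontal cortex is a layered sheet of glutamatergic projection neurons and GABAergic interneurons with glia and vessels, and it takes part in the control of social and fearful behaviour. The basal forebrain lies below it and holds cholinergic and GABAergic neurons that project to the cortex. Lines of silver fox bred for their response to people are a model of early domestication, in which behaviour was the selected trait. A gene detected in a cortex dissection and not in a basal forebrain dissection can belong to a cortical cell type, to a rare cell type or to any gene near the detection limit. Bulk counts do not separate these cases, and fewer cells of a type and less RNA per cell cannot be told apart.

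The identifiers are dog Ensembl genes. The fox RefSeq gene table at hand (assembly VulVul3) held 0 of them and the files do not pair them with symbols, so the genes are given by identifier, without function, position, length or sequence. For the same reason the dissections could not be checked against markers of cortical or basal forebrain cell types. Without gene lengths, the ranks by CPM below order genes by counts and not by transcript number.

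CPM is a gene's count per 1000000 counts of its library. Cortex library totals ran from 6.23 to 17.2 M counts (M, units of 1000000), with a median of 11.5 M, so that 1 CPM was between 6.23 and 17.2 counts. Every gene of the cortex table reached 1 CPM in at least 6 libraries, and so did every gene of the forebrain table. A gene listed only for the cortex therefore met that rule in cortex and is unlisted in forebrain, where its count is not analysed here. Because the number of libraries at 1 CPM or more appears to have chosen the rows of the table, it is given as a description with no test. In the cortex, ID187, ID191, ID182, ID186 and ID190 stand apart from the other 19 libraries. Their scores on the leading component of all 113 members (log2 CPM) ran from 5.11 to 12.3, and those of the other 19 from -3.25 to -0.806. All 5 are tame, so results on the line difference are given with these libraries and without them.

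The members were genes of low count. Their mean over the 24 cortex libraries ran from 0.665 to 11.6 CPM with a median of 1.34 CPM, where the median gene of the whole cortex table stood at 29.5 CPM. In counts, the median member had a mean of 16.3 per library and the median cortex gene 354. A total of 38 members had a mean under 1 CPM, 42 lay between 1 and 2 CPM, 27 between 2 and 5 CPM, and 6 at 5 CPM or more. All members together made up 0.0217% of the cortex counts, and the 5 most abundant of them held 18.3% of the summed mean CPM of the 113. The lower the level, the larger was the share of cortex genes that the forebrain table does not list. Of the 178 cortex genes with a mean under 1 CPM, 21.3% were members, against 7.17% of the 586 genes between 1 and 2 CPM, 2.33% of the 1161 between 2 and 5 CPM, and 0.0551% of the 10883 at 5 CPM or more. The genes listed only for the forebrain had a similar median, 1.34 CPM over the 22 forebrain libraries, but a longer upper end. Their highest mean was 124 CPM, and 13.5% of them reached 5 CPM, where 5.31% of the cortex members did. The tables come from different libraries, so this is a description of each and no test of a difference.

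**Figure D1:**
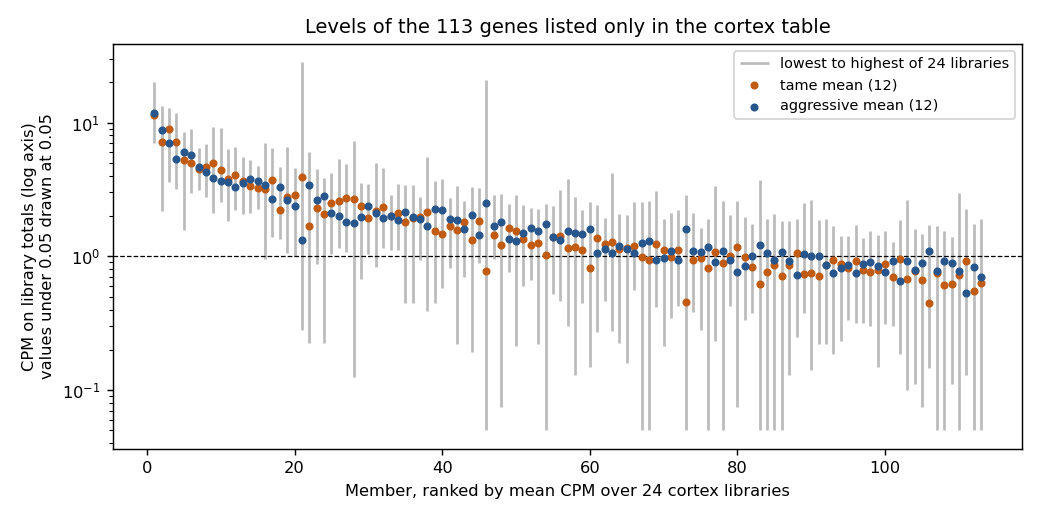
Mean CPM of each of the 113 genes listed only in the cortex table, ranked by the mean over 24 libraries (horizontal axis) on a log axis of CPM; orange and blue points are the means of 12 tame and 12 aggressive libraries and grey lines run from the lowest to the highest library. Most members sit between 0.665 and 2 CPM, and 4 of them have a highest library at least 5 times their median.

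The number of libraries in which a member reached 1 CPM spread over the whole allowed range, from 6 to 24, with a median of 16. It was 24 of 24 for 26 members (23.01%), against 87.4% of all cortex genes. Another 46 members reached 1 CPM in 12 to 23 libraries, and 41 in 6 to 11. The 9 members at exactly 6 libraries, the fewest that the table holds, had means of 0.689 to 0.887 CPM. The 26 members seen in all libraries had means of 1.996 to 11.6 CPM with a median of 3.58 CPM. No member lacked a library at 1 CPM in either line: the lowest number was 1 of 12 in tame and 1 of 12 in aggressive foxes. The median member reached 1 CPM in 7 tame and in 9 aggressive libraries. More aggressive than tame libraries reached 1 CPM for 43 members, more tame than aggressive for 29, and equal numbers for 41. Over all cortex genes the same numbers were 1248, 268 and 11292, so the lean to aggressive libraries was not particular to the members.

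Seen by library, between 53 and 83 of the 113 members reached 1 CPM. The 12 aggressive libraries ran from 70 to 83 with a median of 77.5. Tame libraries ID191, ID187, ID182, ID190 and ID186 held 53, 58, 65, 68 and 69 members. These 5 counts are the lowest of the 24 libraries. The other 7 tame libraries ran from 74 to 82, inside the aggressive range. Over all cortex genes, 91.2% to 96.7% reached 1 CPM in the same 5 libraries and 97.5% to 98.8% in the other 19, so the table as a whole moved in the same direction. Scaling by TMM, a trimmed mean of log ratios between libraries, raised the count of ID187 to 63 and that of ID191 to 65, and the aggressive libraries then ran from 68 to 81. The summed CPM of the members differed less, from 192.5 to 227 in the 5 libraries and from 201 to 244 in the other 19, ranges that overlap. Of the 113 members, 105 still reached 1 CPM in 6 or more of the 19 libraries. The remaining 8 members, with means of 0.725 to 0.992 CPM and 6 to 8 libraries at 1 CPM out of 24, kept between 2 and 5 of the 19.

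**Figure D2:**
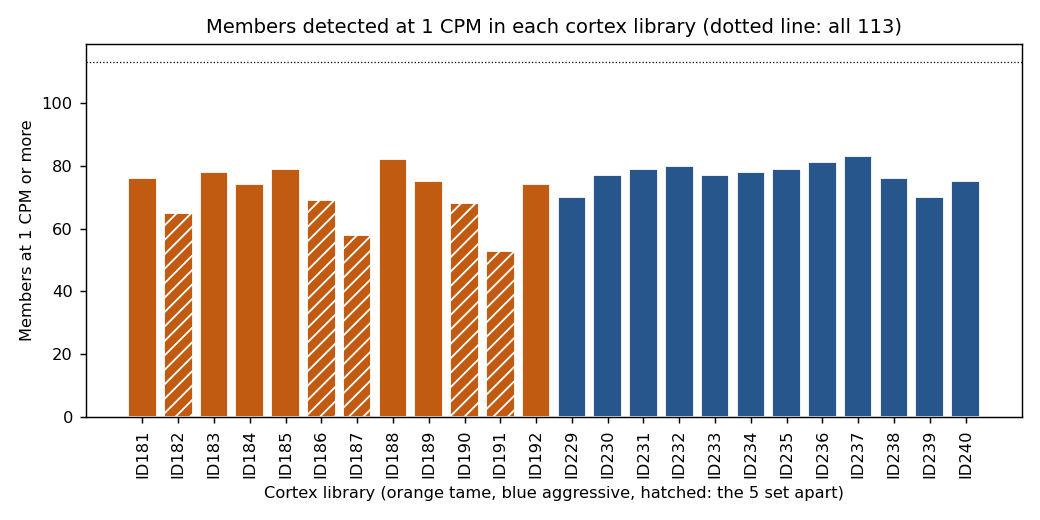
Number of the 113 members at 1 CPM or more (vertical axis) in each of the 24 cortex libraries, with tame libraries in orange, aggressive libraries in blue and the 5 tame libraries that stand apart hatched. The hatched bars lie between 53 and 69 and all other bars between 70 and 83.

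Among the most abundant members, ENSCAFG00000030630 stood highest at 11.6 ± 2.83 CPM (SD, n = 24), which is rank 9199 of the 12808 cortex genes. In tame foxes its lowest, median and highest libraries were 7.01, 11.6 and 16.3 CPM, and in aggressive foxes 9.07, 11.2 and 20.0 CPM. The ranges of the lines overlapped between 9.07 and 16.3 CPM, and its log2 fold change (tame over aggressive) of 0.071 (SE 0.16, adjusted p = 0.726 by edgeR) was under its own error. That value turned to -0.23 without the 5 libraries and to -0.045 on library totals without TMM, so it carries no stable direction.

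ENSCAFG00000009386 followed at 8.02 ± 2.12 CPM and ENSCAFG00000020408 at 7.98 ± 2.53 CPM (SD, n = 24 each). The 12 aggressive libraries of ENSCAFG00000009386 ran from 7.60 to 13.4 CPM and the 7 other tame libraries from 7.29 to 9.80 CPM. In ID182, ID186, ID187, ID190 and ID191 it stood at 9.08, 6.24, 2.17, 6.38 and 3.67 CPM, so 4 of these 5 lay below every other cortex library. Its log2 fold change of -0.24 (SE 0.14, adjusted p = 0.192 by edgeR) became -0.083 without them. ENSCAFG00000020408 was evenly spread, from 4.83 to 12.8 CPM in tame and from 3.604 to 10.3 CPM in aggressive foxes, with a log2 fold change of 0.44 (SE 0.20, adjusted p = 0.131 by edgeR), and 0.29 without the 5.

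ENSCAFG00000031507, at 5.67 ± 1.58 CPM (SD, n = 24), ran from 4.58 to 8.54 CPM in aggressive foxes and from 5.28 to 8.01 CPM in the 7 other tame libraries. In ID187, ID191, ID186 and ID190 it stood at 1.57, 2.45, 3.70 and 4.40 CPM, below every other cortex library, and in ID182 it stood at 6.50 CPM, inside the range of the rest. Its log2 fold change was -0.15 (SE 0.16, adjusted p = 0.431 by edgeR) with all libraries and 0.063 without the 5.

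The SD of log2 CPM over 24 libraries had a median of 0.547 among members and 0.383 over all cortex genes. Leaving out the 5 libraries lowered these medians to 0.480 and 0.180. Taken by level, the median SD for means under 1 CPM was 0.660 for the 38 members and 0.658 for all 178 cortex genes, and between 1 and 2 CPM it was 0.541 and 0.574. Between 2 and 5 CPM it was 0.473 and 0.489, and at 5 CPM or more, where there were 6 members, 0.465 and 0.354. Over the 19 libraries the median SD of the members lay above that of all genes at each level, at 0.555 and 0.523, 0.474 and 0.451, 0.380 and 0.341, and 0.326 and 0.163, in the same order. The highest level is not matched, since means there reached 11.6 CPM among the 6 members and 5809 CPM over all genes. The biological coefficient of variation estimated by edgeR, which leaves out counting error, had a median of 0.321 among members and 0.267 over all genes. Taken by level, its medians for members and all genes were 0.395 and 0.351 under 1 CPM and 0.313 and 0.321 between 1 and 2 CPM. They were 0.320 and 0.293 between 2 and 5 CPM, and 0.291 and 0.261 at 5 CPM or more. The SD was larger in tame than in aggressive foxes for 84 of 113 members (74.3%), where it was for 91.8% of all cortex genes. Over the 7 other tame libraries it was larger in tame for 51 members (45.1%), against 44.4% of all genes. Counts of 0 made up 26 of the 2712 values of the members (0.959%), in 16 genes, against 0.0631% of all cortex values. Of these 26, 20 were in the 5 libraries, with 9 in ID187, 7 in ID191, 3 in ID186 and 1 in ID190. Over all cortex genes, 79.4% of the counts of 0 were in the same 5 libraries.

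A few members stood far above their median in their highest library. In 4 of 113 members (3.54%) the highest library stood at least 5 times above the member's median, against 0.632% of all cortex genes, most of which have higher counts. ENSCAFG00000005065, the most variable member by SD of log2 CPM (1.804), reached 20.6 CPM (328 counts) in aggressive library ID231. Its next highest library was ID238 at 3.01 CPM, its median over all 24 was 0.409 CPM, and 6 libraries held no count. Some of its deposited counts are fractions, as arises where a read is divided among genes. Its log2 fold change of -1.71 (SE 0.84, adjusted p = 0.146 by edgeR) was -0.12 without ID231 and -1.55 without the 5, so that 1 library set most of it.

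ENSCAFG00000009453, named here after its values were seen, had 28.2 CPM (367 counts) in tame library ID185 and 9.91 CPM in tame library ID182, against a median of 1.05 CPM. It had the largest positive log2 fold change of the members, 1.596 (SE 0.67, adjusted p = 0.110 by edgeR), and this was 0.51 without ID185 and 1.76 without the 5. ENSCAFG00000018542 ran from 0 to 3.74 CPM in tame and from 0 to 2.89 CPM in aggressive foxes, with a median of 0.424 CPM and its highest library in tame fox ID183. It had no count in ID187 and ID191. Its log2 fold change was -0.94 (SE 0.66, adjusted p = 0.251 by edgeR), and it was -1.803 without ID183 and -0.28 without the 5 libraries. The last of the 4, ENSCAFG00000017552, was also named after its values were seen and ran up to 2.96 CPM in aggressive library ID238. Its second library, ID185, lay close at 2.68 CPM.

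ENSCAFG00000025358 had the next largest spread after ENSCAFG00000018542, with an SD of log2 CPM of 1.36. It ran from 0.125 to 4.58 CPM in aggressive foxes and from 0.153 to 2.68 CPM in the 7 other tame libraries. In ID191, ID186, ID190, ID187 and ID182 it stood at 7.24, 6.82, 3.595, 3.14 and 0.322 CPM. Library ID182 thus lay at the low end, while ID191 and ID186 lay above all other libraries. Its log2 fold change was 0.78 (SE 0.54, adjusted p = 0.248 by edgeR) with all libraries and -0.087 without the 5.

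Over the 6328 pairs of members, the median Pearson correlation of log2 CPM was 0.0297 across the 24 libraries. A total of 105 pairs lay above 0.7 and 15 below -0.7. Without the 5 libraries, 7 pairs lay above 0.7 and 2 below -0.7. The points share their libraries and their totals, so these are descriptions. The leading component held 35.1% of the members' variance over 24 libraries and 17.2% over 19, and over all cortex genes it held 79.0% in 24 libraries.

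To ask whether members differed between tame and aggressive foxes, the whole cortex table was fitted and only the members' rows are given. In edgeR's quasi-likelihood test 2 of 113 members passed an adjusted p of 0.05, and both were lower in tame foxes (1.77% of members). Of all 12808 cortex genes, 0.453% passed, with 0.344% higher and 0.109% lower in tame foxes. Both called members entered the table through the aggressive line: they reached 1 CPM in 8 and 9 aggressive libraries and in 1 tame library each. Meeting the rule of 6 libraries through 1 line favours genes that are higher in that line, though it does not force a difference. The share of 1.77% is therefore a description and supports no difference between the members and other genes. Members passing an unadjusted p of 0.05 numbered 18 (15.9%), 11 higher and 7 lower, against 34.6% of all genes. At the members' level this share was also lower over the whole table, at 16.3% of genes under 1 CPM and 20.5% of those between 1 and 2 CPM. With limma-voom and sample quality weights the call count was 4 members (3.54%), 2 higher and 2 lower, against 1.29% of all genes. Of these, ENSCAFG00000024277, ENSCAFG00000000171 and ENSCAFG00000016233 reached 1 CPM in 1, 4 and 7 tame and in 9, 11 and 2 aggressive libraries. They too met the rule of 6 libraries through 1 line, so the share of 3.54% is also only a description. ENSCAFG00000010039, the remaining call, reached 1 CPM in 11 tame and 12 aggressive libraries. For 0 members, and for 0% of all cortex genes, did the CPM ranges of the lines separate.

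ENSCAFG00000013753 averaged 0.449 ± 0.295 CPM over 12 tame libraries and 1.09 ± 0.336 CPM over 12 aggressive libraries (mean ± SD). Its lowest, median and highest libraries were 0.147, 0.317 and 1.13 CPM in tame and 0.515, 1.03 and 1.71 CPM in aggressive foxes. In ID182, ID186, ID187, ID190 and ID191 it stood at 0.193, 0.231, 0.299, 0.147 and 0.334 CPM, and 11 of 12 tame libraries lay below the aggressive median. The ranges overlapped, since tame library ID189, at 1.13 CPM, exceeded most aggressive libraries. In counts these values are small, from 2 to 17 per library with a median of 8. The log2 fold change was -1.19 (SE 0.27, adjusted p = 0.0460 by edgeR), with adjusted p-values from 0.0102 to 0.363 over the alternatives. It was -0.84 (adjusted p = 0.363 by edgeR) without the 5 libraries, where 6 of the 7 remaining tame libraries lay below the aggressive median.

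ENSCAFG00000024277 averaged 0.454 ± 0.410 CPM over 12 tame libraries and 1.599 ± 0.732 CPM over 12 aggressive libraries (mean ± SD). Its lowest, median and highest libraries were 0, 0.409 and 1.25 CPM in tame and 0.530, 1.67 and 2.89 CPM in aggressive foxes. The 5 lowest values of all 24 libraries were those of ID187, ID191, ID182, ID190 and ID186, at 0, 0, 0.0644, 0.0734 and 0.231 CPM, or 0 to 2 counts each. All 12 tame libraries lay below the aggressive median, among them the 7 others, which ran from 0.288 to 1.25 CPM and overlapped with the aggressive libraries. The log2 fold change was -1.75 (SE 0.40, adjusted p = 0.0479 by edgeR), with adjusted p-values from 0.0144 to 0.224 over the alternatives. Without the 5 libraries it was -1.12 (adjusted p = 0.224 by edgeR).

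Both calls lay close to the threshold and were lost when single libraries were left out. ENSCAFG00000013753 kept its call in 6 of 24 such fits, those without tame ID181, ID183, ID184, ID189 or ID192 or without aggressive ID232. ENSCAFG00000024277 kept it in 5, those without tame ID181, ID188 or ID192 or without aggressive ID235 or ID238. Leaving out any other library ended the call, with adjusted p-values up to 0.0883 and 0.0910, while the fold changes stayed between -1.44 and -1.09 and between -1.97 and -1.62.

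**Figure D3:**
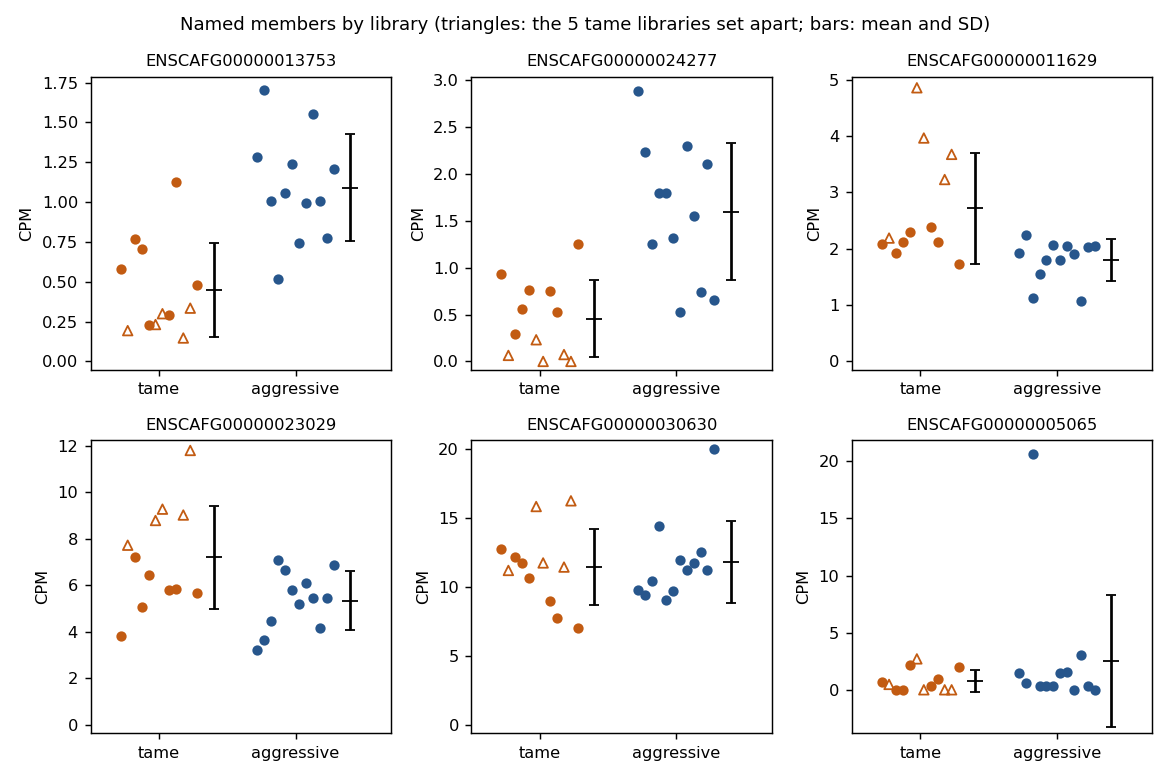
CPM (vertical axis, linear) of 6 named members in each tame (orange) and aggressive (blue) cortex library; triangles mark the 5 tame libraries that stand apart, and black bars give the mean and SD of 12 libraries. The triangles are the 5 lowest values of ENSCAFG00000024277, and 1 aggressive library at 20.6 CPM stands alone for ENSCAFG00000005065.

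In edgeR's test 0 members were past the threshold in the other direction. By p-value in that test the members highest in tame foxes were ENSCAFG00000011629 and ENSCAFG00000023029. ENSCAFG00000011629 averaged 2.71 ± 0.982 CPM over 12 tame libraries and 1.802 ± 0.370 CPM over 12 aggressive libraries (mean ± SD). Its values were 2.19, 4.86, 3.97, 3.23 and 3.67 CPM in ID182, ID186, ID187, ID190 and ID191, from 1.73 to 2.38 CPM in the 7 other tame libraries and from 1.08 to 2.24 CPM in aggressive foxes. Every library above 2.38 CPM was thus 1 of the 5. The log2 fold change was 0.72 (SE 0.20, adjusted p = 0.0905 by edgeR) and 0.23 (adjusted p = 0.844 by edgeR) without them.

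ENSCAFG00000023029, which is also among the 5 most abundant members, averaged 7.21 ± 2.22 CPM over 12 tame libraries and 5.34 ± 1.26 CPM over 12 aggressive libraries (mean ± SD). It stood at 7.72, 8.79, 9.28, 9.02 and 11.8 CPM in ID182, ID186, ID187, ID190 and ID191, above all other libraries, of which the highest held 7.20 CPM. The 7 other tame libraries, from 3.83 to 7.20 CPM, covered nearly the same range as the aggressive libraries, from 3.21 to 7.08 CPM. Its log2 fold change was 0.56 (SE 0.20, adjusted p = 0.0909 by edgeR), and 0.085 (adjusted p = 0.975 by edgeR) without the 5.

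The members that limma-voom called besides ENSCAFG00000024277 are named after their values were seen. ENSCAFG00000016233 had its lowest, median and highest libraries at 0.161, 0.734 and 2.01 CPM in aggressive foxes and at 0.672, 1.34 and 2.58 CPM in the 7 other tame libraries. In ID187, ID191, ID186, ID182 and ID190 it stood at 0.0748, 0.334, 0.694, 0.772 and 1.25 CPM, so that ID187 was the lowest of all 24. The ranges overlapped, with 6 of the 7 other tame libraries higher than the median of the aggressive ones. The log2 fold change was 1.09 (SE 0.24, adjusted p = 0.0189) in limma-voom and 0.65 (SE 0.33, adjusted p = 0.158) in edgeR, with adjusted p-values from 0.0189 to 0.242 over the alternatives. Without the 5 libraries edgeR gave 1.01 (SE 0.30, adjusted p = 0.234).

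ENSCAFG00000010039, whose counts hold fractions, had its lowest, median and highest libraries at 1.47, 1.96 and 3.26 CPM in aggressive foxes and at 1.799, 3.37 and 3.51 CPM in the 7 other tame libraries. It stood at 0.679, 1.04 and 1.57 CPM in ID182, ID191 and ID187, and at 2.07 and 2.45 CPM in ID186 and ID190. Libraries ID182 and ID191 were the lowest of the 24, and 5 of the 7 other tame libraries lay above the aggressive median. In log2 units the fold change was 0.65 (SE 0.14, adjusted p = 0.0121) in limma-voom and 0.34 (SE 0.20, adjusted p = 0.203) in edgeR, with a range of adjusted p from 0.0121 to 0.334. Without the 5 libraries edgeR gave 0.59 (SE 0.17, adjusted p = 0.234). For both genes the edgeR log2 fold change was larger without the 5 libraries than with them.

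ENSCAFG00000000171 averaged 0.820 ± 0.410 CPM over 12 tame libraries and 1.61 ± 0.533 CPM over 12 aggressive libraries (mean ± SD), and 11 of 12 tame libraries lay below the aggressive median. On the log2 scale the fold change was -0.78 (SE 0.19, adjusted p = 0.0297) in limma-voom and -0.93 (SE 0.24, adjusted p = 0.0708) in edgeR, with a range of adjusted p from 0.0297 to 0.430. Without the 5 libraries edgeR gave -0.68 (SE 0.24, adjusted p = 0.430).

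Over the whole set the line differences had no common direction. Of the 113 members, 56 were higher and 57 lower in tame foxes, with a median log2 fold change of 0.00 (-0.000329), where it was 0.02 over all cortex genes. The median absolute log2 fold change was 0.31 for members and 0.30 for all genes. Fold changes over 1 on the log2 scale were seen in 5 members, 4 lower and 1 higher, and in 46 of the 12808 cortex genes. The 1 higher, ENSCAFG00000009453, was at 0.51 without ID185, and ENSCAFG00000005065, among the lower, at -0.12 without ID231. The called ENSCAFG00000013753 and ENSCAFG00000024277, also among the lower, met the rule of 6 libraries through the aggressive line. The remaining lower member, ENSCAFG00000020315, named after its values were seen, reached 1 CPM in 9 tame and 11 aggressive libraries. Its log2 fold change was -1.01 (SE 0.36, adjusted p = 0.0909 by edgeR) with all libraries and -0.55 without the 5. By level, 16 were higher and 22 lower among members under 1 CPM, 18 and 24 between 1 and 2 CPM, 19 and 8 between 2 and 5 CPM, and 3 and 3 at 5 CPM or more. Without the 5 libraries the split was 23 and 15 under 1 CPM, 15 and 27 between 1 and 2 CPM, 16 and 11 between 2 and 5 CPM, and 3 and 3 above. Among the 26 members seen in all libraries 19 were higher in tame foxes with the 5 libraries and 15 without them, and 0 of these 26 passed the adjusted threshold.

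Without libraries ID182, ID186, ID187, ID190 and ID191 (7 tame against 12 aggressive), 0 members passed an adjusted p of 0.05 in the same test, with a smallest adjusted p of 0.224, while 12 had an unadjusted p under 0.05, 5 higher and 7 lower in tame foxes. Over all genes 0.234% passed the adjusted and 7.08% the unadjusted threshold in these 19 libraries, where 10.6% of members passed the unadjusted one. By level, that unadjusted share over all genes was 11.2% under 1 CPM, 9.22% between 1 and 2 CPM, 9.13% between 2 and 5 CPM and 6.68% above. The median absolute log2 fold change of the members fell from 0.31 to 0.17, and over all cortex genes from 0.30 to 0.06. Taken by level, the 19-library medians of members and all genes were 0.170 and 0.179 under 1 CPM and 0.156 and 0.189 between 1 and 2 CPM. Between 2 and 5 CPM they were 0.113 and 0.133, and at 5 CPM or more, with 6 members, 0.160 and 0.0528. The direction changed for 33 of 113 members (29.2%), 16 from higher to lower and 17 from lower to higher, against 49.1% of all genes. All 18 members with an unadjusted p under 0.05 in 24 libraries kept their sign, and 6 had an unadjusted p under 0.05 in both fits. Of the 4428 cortex genes under 0.05 in 24 libraries, most of which have higher counts, 420 were so in both fits with the same sign. Both fits share the 12 aggressive and 7 of the tame libraries.

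**Figure D4:**
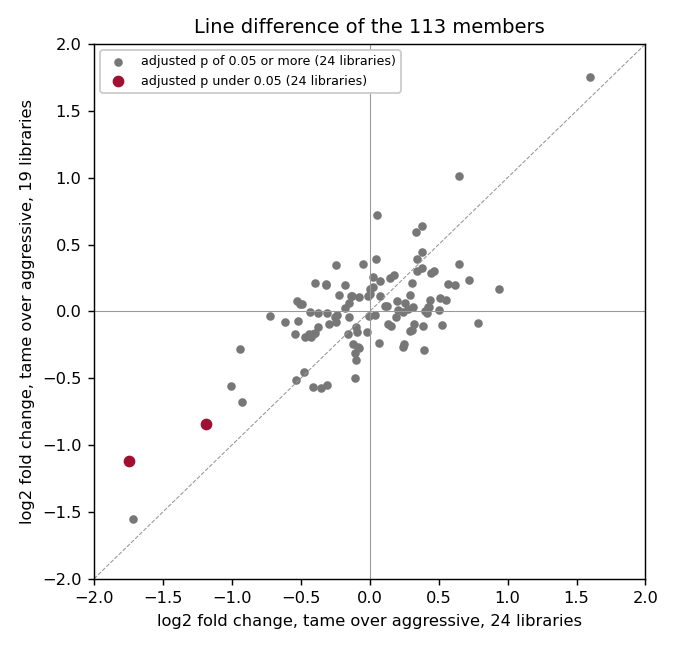
Log2 fold change (tame over aggressive) of each of the 113 members with all 24 cortex libraries (horizontal axis) and with 19 libraries (vertical axis); the dashed line marks equal values and red points the 2 members past an adjusted p of 0.05 in 24 libraries. Both red points lie above the dashed line, at -1.19 and -1.75 with all libraries and at -0.84 and -1.12 without the 5, and 33 members change sign.

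Properties of the counting were compared last. Fractional counts occurred in 8 members (7.08%) and in 4.997% of all cortex genes. These 8 had means of 0.801 to 2.16 CPM, and 0 of them passed the adjusted threshold between the lines. No member shared all its values with another gene (0 of 113), as 3.94% of all cortex genes did.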

How the data were processed

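Poly(A) RNA libraries were made with Illumina TruSeq kits and sequenced on a HiSeq2000, per the labels' protocols. For each tissue the authors deposited estimated counts by gene in 1 table, under dog Ensembl identifiers per the file headers. The submitters' processing notes name CASAVA 1.8.2, FastQC, Trimmomatic, BWA, bedtools, edgeR and the dog build canFam3, without their roles. Counts were rounded to whole numbers. All 12808 cortex genes were kept, because a further count filter (filterByExpr, minimum count 10) would drop 28 of the 113 members. Libraries were scaled by TMM (trimmed mean of M-values), and tame was compared with aggressive by edgeR 4.0.16's quasi-likelihood F-test (robust, line as the single term, R 4.3.3), with Benjamini-Hochberg adjustment over all cortex genes. The SE given with an edgeR log2 fold change is its absolute value divided by the square root of the F statistic. Levels are CPM on library totals. SDs, components and correlations used log2 CPM with a prior count of 2. The test was also run on simulated counts without a group of libraries standing apart. That run does not cover data with such a group.

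Identifiers were named by these rules: at most 2 higher and 2 lower in tame foxes in order of p, the 5 of highest mean CPM and the 3 of largest SD. The members, rules and lists were chosen with earlier results of these data known. The 20 lists of gene symbols could not be applied. Alternatives covered scaling, filter, limma 3.58.1, DESeq2 1.42.0, sva 3.50.0 and left-out libraries.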

Additional observations from a re-analysis of the deposited data

How the results depend on the processing

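The number of members that differed between the lines was 2, and it stayed at 2 with size factors, upper-quartile scaling, robust=FALSE and unrounded counts. It was 1 on library totals alone, 1 with a surrogate variable, 4 with limma-voom and quality weights (2 higher and 2 lower in tame foxes, 1 of them shared with the 2), 0 without ID182, ID186, ID187, ID190 and ID191, and 0 of 85 tested members after filterByExpr, which removed both. Unadjusted p-values under 0.05 numbered 12 to 19 over these settings. DESeq2 gave no adjusted p for any of the 113 members, and none for 7698 of the 12808 cortex genes. Fits that left out 1 library gave 0 to 3 members. Over all cortex genes the count was 58, against 88 with upper-quartile scaling, 165 with limma-voom, 869 with DESeq2, 30 without the 5 libraries and 21 to 144 when 1 library was left out. At 2 CPM in place of 1 CPM, 45 of the 113 members reached the level in 6 or more libraries. The log2 fold change of ENSCAFG00000031507 reversed to 0.056 with limma-voom, 0.036 with a surrogate variable and 0.063 without the 5 libraries. That of ENSCAFG00000030630 reversed to -0.045 on library totals, -0.26 with limma-voom, -0.18 with a surrogate variable, -0.23 without the 5 and -0.030 without ID191, with a range of -0.030 to 0.166 over the fits that left out 1 library. That of ENSCAFG00000025358 reversed to -0.087 without the 5. The cause of these changes was not tested. No paired analysis was possible because the tame and aggressive libraries share no identifier. At 1 CPM a library holds 6.23 to 17.2 counts, which limits what can be detected for most members.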
